A study of Mus musculus with 4 samples.

Results

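The cells described here are dendritic-like cells that carry MHC class II transcripts, found within a sorted fraction of mouse bone marrow. They were chosen by their counts of unique molecular identifiers (UMIs, one per captured RNA molecule): at least 5 UMIs of Cd74, at least 5 of H2-Aa, H2-Ab1 and H2-Eb1 together, and none of the B cell genes Cd79a, Ebf1 and Pax5. The gate held 419 of 34320 cells (1.22%), counted among barcodes that passed 3 filters: 500 genes or more, 1000 UMIs or more, and mitochondrial UMIs of no more than 10%. The study measured single-cell RNA-seq in LSK cells, which lack lineage markers, carry Sca-1 and Kit, and hold the blood stem cells and early progenitors. The Yoda1 group had 2 libraries from wild-type mice given Yoda1, an agonist of the mechanosensitive ion channel Piezo1, intraperitoneally for 2 weeks, and the control group had 2 libraries from wild-type mice given vehicle. The sources used here do not give strain or age. They also do not say that each library is a different animal, so the p-values describe the spread among 4 libraries, some of which may be technical.

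Dendritic cells take up antigen, cut it into peptides and show the peptides to T cells on MHC molecules. MHC class II is a pair of chains, here from H2-Aa, H2-Ab1 and H2-Eb1, that is folded on the invariant chain Cd74, loaded with peptide with the help of H2-DM and H2-O, and switched on by the transactivator Ciita. Classical dendritic cells of type 1 (cDC1) present antigen of dead cells to killer T cells and depend on Batf3 and Irf8. Type 2 cells (cDC2) depend more on Irf4, and plasmacytoid cells, marked by Siglech, are a source of type I interferon.

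The members had a median of 11407 UMIs per cell, against 9258 in all other kept cells. They came to 56 cells in Yoda1 1 and 127 in Yoda1 2, and to 117 in control 1 and 119 in control 2. Their summed UMIs were 581903 in Yoda1 1 and 1677181 in Yoda1 2, against 2469898 in control 1 and 1616903 in control 2, so Yoda1 1 gave the least precise values. Of 57 members with over 3 times their library's median UMIs, 1 lay in Yoda1 1 and 18 in Yoda1 2, and 25 in control 1 and 13 in control 2. Libraries shared 14 to 30 barcodes in pairs. No barcode of a member was that of a member elsewhere, and 2 were barcodes of a kept cell of another library. Doublets were not removed.

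The threshold did not fall in a gap. There were 39 members with 5 or 6 Cd74 UMIs, while 63 cells with 3 or 4 lay just outside. Likewise 31 members had 5 or 6 UMIs of the class II chains, and 60 cells with 3 or 4 lay just outside. The B cell condition turned away 13 cells that met both other conditions.

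The gate used Cd74 and the class II chains, so values of all genes in the members against other cells are given as a description, without a test. Of the 12 genes with the highest ratio to the other kept cells, 4 (Naaa, Id2, Xcr1 and Batf3) belonged to the list of cDC1 genes. Levels are CPM, the UMIs of a gene divided by all UMIs summed over the members of a library and scaled to the same total in each. Plbd1, a phospholipase B-like protein (chromosome 6, 136612070 to 136661928), led with 41.2-fold at a pseudocount of 10 CPM, and was at 320 and 489 CPM in Yoda1 1 and Yoda1 2, and at 351 and 578 CPM in control 1 and control 2. In the other cells it lay between 0.56 and 0.97 CPM. Naaa, a lipid amidase typical of mouse cDC1 (chromosome 5, 92257659 to 92278170), followed with 30.8-fold, and Id2, an inhibitor of E proteins that dendritic cells need (chromosome 12, 25093799 to 25097140), with 29.7-fold. Next came Lgals3 (galectin-3, 24.5-fold), Ckb (a creatine kinase, 23.0-fold), Aif1 (a calcium-binding protein of myeloid cells, 19.3-fold) and Cst3 (cystatin C, a protease inhibitor abundant in dendritic cells, 16.2-fold).

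The defining receptors and transcription factors of cDC1 followed. Xcr1, the chemokine receptor that marks cDC1 (chromosome 9, 123852315 to 123862029), was at 105 and 171 CPM in the Yoda1 1 and Yoda1 2 members, and at 82.2 and 186 CPM in those of control 1 and control 2. At least 1 Xcr1 UMI was found in 49.2% of the members and in 0.153% of the other kept cells, or in 28.7% and 0.0579% with each cell thinned to 3000 UMIs. Batf3 (chromosome 1, 191097847 to 191108945) was detected in 65.4% of the members and in 0.239% of the other cells, at 141 and 122 CPM in Yoda1 1 and Yoda1 2 and at 122 and 150 CPM in control 1 and control 2. Clec9a, a receptor for dead cells, was detected in 57.3% of members, Tlr3, a sensor of double-stranded RNA, in 41.8%, and Cadm1, an adhesion protein, in 33.4%, against 0.732%, 0.448% and 0.301% of the other cells. Wdfy4, which cDC1 need for cross-presentation, was at 175 to 294 CPM in the members of the 4 libraries and at 35.3 to 53.8 CPM in the other cells. Zbtb46, a transcription factor of classical dendritic cells, was detected in 23.4% of members and 1.46% of others.

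Itgax, which encodes the integrin CD11c and was one of the label's markers, was found in 24.6% of members and 1.15% of other cells, or 6.37% and 0.338% after thinning. It was listed with the genes of classical dendritic cells. Several markers of the other dendritic cells were rare. Siglech, another of the label's markers, was found in 2.39% of members. The cDC2 genes Cd209a, Irf4 and Clec4a4 were each detected in under 1% of members (0.955%, 0.716% and 0.239%), and Sirpa in 14.3% of members and 15.9% of other cells. Of the 13 genes of the cDC2 list, 6 had counts high enough in members to be tested by treatment. These were Sirpa, Itgam, Cd300a, Cd7, Ltb and Tnip3. Genes of activated or migrating dendritic cells were low, with Ccr7, the receptor that guides them to lymph nodes, in 2.15% of members and 1.87% of other cells. Of the markers of T cells, Cd3e and Cd3g had no UMI in any member, and neither did Blk and Fcmr of B cells, Mzb1 and Iglc2 of plasma cells, or Lepr of stroma. Other genes of these lists had counts high enough to be tested by treatment. They were 4 of 11 B-lineage genes outside the gate and 4 of 14 T, NK and innate lymphoid genes. Of the plasma cell genes 2 of 7 were tested, and of the endothelial and stromal genes 2 of 7. Thus of the label, the class II part followed from the rule, the classical dendritic part held for most but not all members, and few cells were plasmacytoid.

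The machinery of class II presentation beyond the genes of the gate was also higher in the members than in other kept cells. H2-DMa and H2-DMb1 encode the peptide exchanger H2-DM. H2-DMa was at 349 and 520 CPM in Yoda1 1 and Yoda1 2 members and at 381 and 584 CPM in control 1 and control 2 members, against 146 to 182 CPM in other cells of the 4 libraries. H2-DMb1 was at 272 and 355 CPM in Yoda1 1 and Yoda1 2 and at 358 and 499 CPM in control 1 and control 2, against 30.8 to 34.7 CPM in other cells. Of the chains of H2-O, which holds H2-DM back, H2-Oa was at 58.4 to 106 CPM in members and 15.0 to 24.7 CPM in others, and H2-Ob at 43.0 to 95.4 CPM and 17.6 to 47.7 CPM. Ciita (chromosome 16, 10480059 to 10528418) was at 107 and 145 CPM in Yoda1 1 and Yoda1 2 members and at 116 and 202 CPM in control 1 and control 2 members, and under 2.4 CPM in other cells of every library. Its partners on the promoter showed no such gap, with Rfx5 at 12.96 to 16.7 CPM in members and 10.8 to 15.5 CPM in others, Rfxank at 5.57 to 10.3 CPM and 8.36 to 11.0 CPM, and Rfxap at 32.7 to 47.6 CPM and 39.3 to 43.6 CPM. Of the enzymes that prepare antigen, the protease Ctss was at 132 to 209 CPM in members and 27.2 to 40.3 CPM in others, and the thiol reductase Ifi30 at 203 to 254 CPM and 15.7 to 23.6 CPM. Marchf1, the ubiquitin ligase that sends class II from the surface to breakdown, was at 37.2 to 71.7 CPM in members and under 0.4 CPM in others.

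Values in 2 other classes of kept cells are set beside the members. Irf8, a transcription factor of dendritic and monocytic cells, was at 954 to 1453 CPM in the members and at 577 to 700 CPM in 3621 cells outside the gate with Irf8 and Ly86. In those cells Xcr1 was at no more than 1.88 CPM and Ciita at no more than 2.14 CPM. In B-lineage cells with Cd79a and Ebf1 (276 cells) no Xcr1 UMI was found in any library, and Ciita lay between 0 and 6.71 CPM.

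Promoters of class II genes are known for an X box bound by the RFX proteins and a Y box with the letters CCAAT, bound by NF-Y. RefSeq promoter windows (GRCm38.p6, 250 bases before to 50 after the start) were given for 13 of the 18 class II pathway genes, 17 windows in all. On either strand, CCAAT was found in 12 of them and CCNAGNNAC, one form of the X box, in 7. All 7 held both. Of all 32851 promoter windows, 37.4% held CCAAT, 17.3% held CCNAGNNAC and 6.38% held both. The windows of H2-DMb1, H2-Oa and H2-Ob are shown because their genes were not used by the gate and the 2 matches stand close together. Beside them is H2-Eb1 of the gate, which has CCAAT but no exact match to this X form. It holds actagcaac, which differs from the form only in its first letter, before its CCAAT matches. Capitals mark the matches, in either orientation (ATTGG is CCAAT on the other strand), and positions are bases from the start site, negative before it.
H2-DMb1 (chr17:34152941-34153240, plus strand): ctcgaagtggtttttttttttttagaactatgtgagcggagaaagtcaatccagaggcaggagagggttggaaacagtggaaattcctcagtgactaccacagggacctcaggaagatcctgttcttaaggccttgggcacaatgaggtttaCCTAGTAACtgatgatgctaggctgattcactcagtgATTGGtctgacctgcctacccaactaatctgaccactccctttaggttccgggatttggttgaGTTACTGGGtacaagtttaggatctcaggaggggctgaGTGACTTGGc
H2-Oa (chr17:34092129-34092428, plus strand): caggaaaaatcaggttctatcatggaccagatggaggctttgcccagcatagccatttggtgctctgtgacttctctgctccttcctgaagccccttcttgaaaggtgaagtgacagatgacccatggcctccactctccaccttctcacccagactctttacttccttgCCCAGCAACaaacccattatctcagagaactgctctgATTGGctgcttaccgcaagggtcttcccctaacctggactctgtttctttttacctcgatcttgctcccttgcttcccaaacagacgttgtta
H2-Ob (chr17:34238655-34238954, plus strand): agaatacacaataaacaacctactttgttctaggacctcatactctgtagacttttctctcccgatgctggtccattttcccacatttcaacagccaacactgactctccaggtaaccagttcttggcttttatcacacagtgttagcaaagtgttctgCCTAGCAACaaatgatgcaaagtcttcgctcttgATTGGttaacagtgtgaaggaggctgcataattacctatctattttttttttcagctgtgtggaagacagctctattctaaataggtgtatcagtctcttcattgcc
H2-Eb1 (chr17:34305617-34305916, plus strand): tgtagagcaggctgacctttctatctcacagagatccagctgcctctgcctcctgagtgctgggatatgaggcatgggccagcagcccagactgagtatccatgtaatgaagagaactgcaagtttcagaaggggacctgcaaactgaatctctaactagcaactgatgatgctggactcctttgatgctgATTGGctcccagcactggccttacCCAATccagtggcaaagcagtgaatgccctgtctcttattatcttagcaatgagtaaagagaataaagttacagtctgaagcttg
In H2-DMb1 the X form begins at -98 and the CCAAT match at -61, in H2-Oa they begin at -80 and -43, and in H2-Ob at -91 and -57. H2-DMb1 has 2 further matches to the X form, at 2 and 40. In each of the 3 promoters the first X form stands before the CCAAT match and in the same relative orientation. A match is a match of letters and says nothing of binding in these cells.

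The members were not one kind of cell. The number of Cd74 UMIs, which ran from the threshold of 5 to over 200, went with the cDC1 genes over its whole range, while stem cell genes were most frequent below 20 Cd74 UMIs. Of the 64 members with 5 to 9 Cd74 UMIs none had Batf3 or Xcr1, and 6.25% had Naaa. Of the 116 members with 200 or more, 93.1% had Batf3, 93.1% had Xcr1 and 99.1% had Naaa. Hlf, which encodes a stem cell transcription factor, was detected in 67.2% of the members with 5 to 9 Cd74 UMIs and in 32.8% of those with 200 or more, and Ly6a, which encodes Sca-1, in 93.8% and 56.9%. Kit, the other gene of the sort, did not follow that order, with 76.6% and 75.9%. The stem cell genes were lowest in the middle: of the 31 members with 20 to 49 Cd74 UMIs, 25.8% had Hlf and 3.23% had Mecom, a stem cell transcription factor found in 48.4% at 5 to 9 and in 12.1% at 200 or more. The median depth of these groups was 9245.5 and 13899.5 UMIs, so between these groups Hlf and Ly6a ran against depth and the cDC1 genes ran with it.

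**Figure D1:**
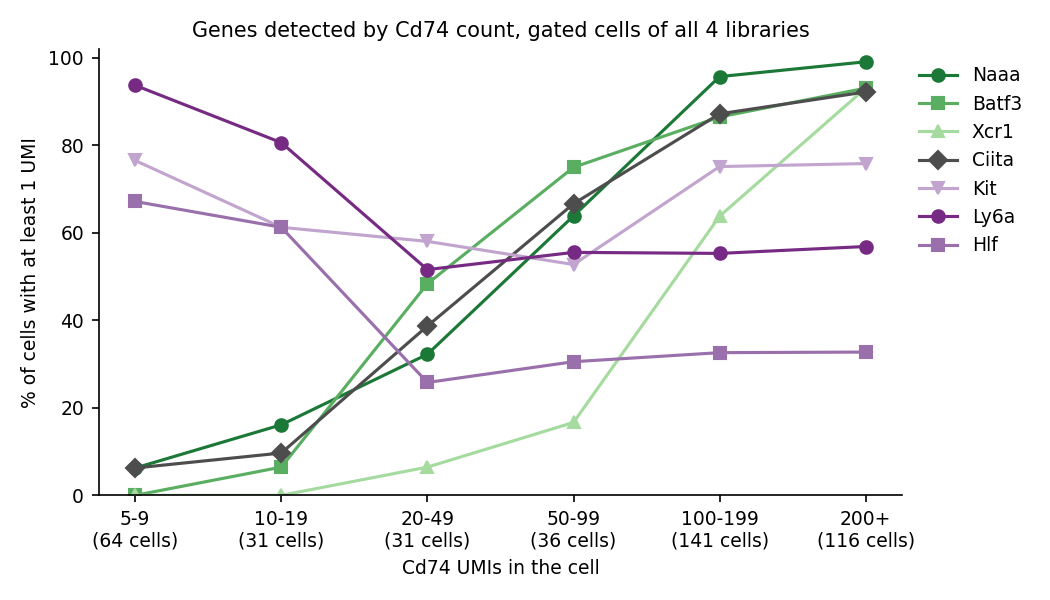
Percent of gated cells with at least 1 UMI of a gene (vertical axis) in bins of their Cd74 UMIs (horizontal axis, with the number of cells), all 4 libraries together. Xcr1 was found in 0% of cells with 5 to 9 Cd74 UMIs and in 93.1% of those with 200 or more, while Hlf was found in 67.2% and 32.8%.

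The members were divided at 20 Cd74 UMIs, a value chosen after the data were seen, into 95 cells with 5 to 19 and 324 cells with 20 or more. In the 95 cells with low Cd74, a median of 1 of 12 cDC1 genes and 6 of 12 stem cell genes was detected per cell. None had Xcr1, 2.11% had Batf3 and 1.05% had Itgax. Hlf was found in 65.3% of them, against 45.6% of the kept cells outside the gate, Ly6a in 89.5% against 54.9%, Mecom in 42.1% against 19.6%, and Ciita in 7.37% against 1.49%. The median UMIs were 8803 in the low-Cd74 cells and 9258 outside the gate. In most of these cells few other dendritic genes were found, which goes against the name dendritic-like. Exceptions were 3 cells with at least 5 cDC1 genes and 2 Siglech-positive cells with 7 and 8 of 9 plasmacytoid genes.

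By a further gate, 229 members (54.7%) were cDC1-type, with Siglech absent and at least 2 UMIs of Xcr1, Clec9a and Cadm1 together. A median of 9 of 12 cDC1 genes and 3 of 12 stem cell genes was detected in them. The 12 cDC1 genes include the 3 genes of this gate, so that count is partly set by it. Only 10 members were cDC2-type alone, 17 of the cDC1-type cells also met the cDC2 gate, and 170 members met neither.

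**Figure D2:**
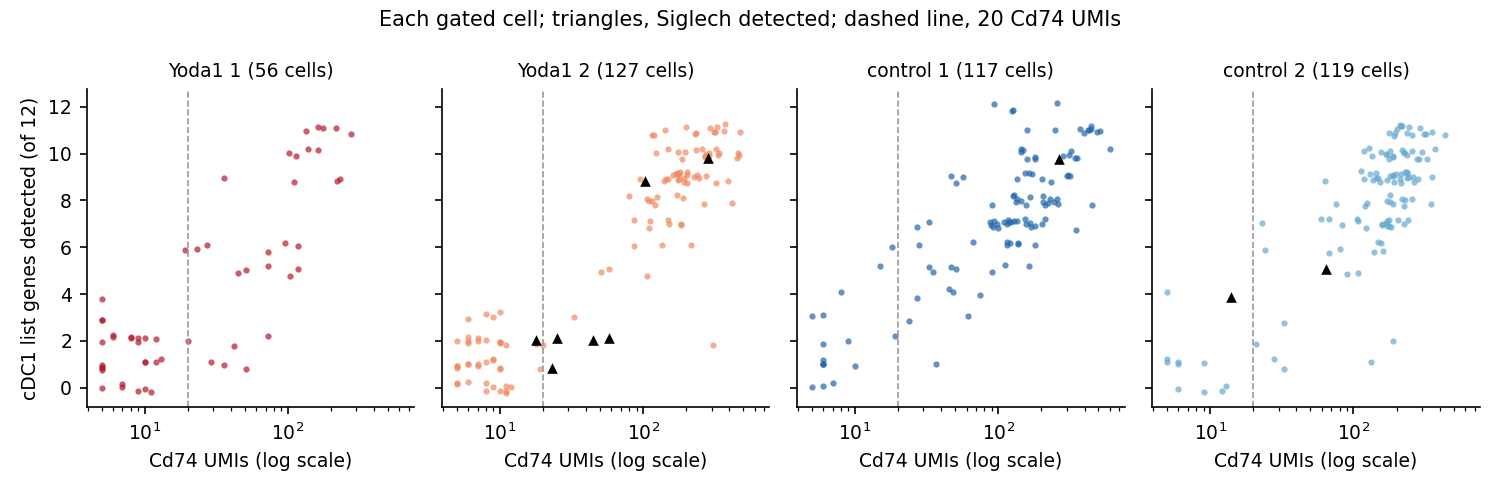
Each gated cell by its Cd74 UMIs (horizontal axis, log scale) and the number of 12 cDC1 genes detected in it (vertical axis, with a small random shift so that points do not overlap), 1 panel per library. Triangles are the 10 cells with Siglech, none of them in Yoda1 1, and the dashed line stands at 20 Cd74 UMIs.

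The Siglech-positive members were 10 cells: 0 in Yoda1 1 and 7 in Yoda1 2, and 1 in control 1 and 2 in control 2. With so few, the planned test of Siglech-positive against other members could not be run, since sums of under 10 cells were to be left out. The 0 of 56 members in Yoda1 1 allowed a share of up to 5.36%. Shares were 0% and 5.51% of members in Yoda1 1 and Yoda1 2, and 0.855% and 1.68% in control 1 and control 2, a difference of 1.49 percentage points (exact two-sided permutation test, p = 1). Without Yoda1 2 the difference was -1.27 percentage points. Of the 10 cells, 6 held at least 6 of 9 further plasmacytoid genes, 5 of them in Yoda1 2 and 1 in control 2. The cell of Yoda1 2 with the most Siglech had 13 UMIs of it, with 17 of Bst2, 16 of Irf8, 8 of Ly6d, 5 of Ccr9 and none of Xcr1, Batf3 or Naaa. The other 4 cells held 0 to 3 of the 9 genes, and 3 of these had Xcr1, Clec9a, Batf3 and Naaa. Siglech was found in 109 kept cells in all, so 99 Siglech-positive cells lay outside the class II gate. The kept cells with Siglech were 9 in Yoda1 1 (0.0987%) and 45 in Yoda1 2 (0.461%). In control 1 and control 2 they were 12 (0.157%) and 43 (0.550%), so they went with the replicate number in both groups.

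Depth within the cDC1-type cells went with other transcripts. In the 77 shallowest cells (median 7907 UMIs) Cd74 was at 25773 CPM, Xcr1 at 442 CPM and Batf3 at 302 CPM, and in the 76 deepest (median 30213 UMIs) at 7049, 122 and 88.1 CPM. Granule genes of myeloid progenitors ran the other way, with Mpo, Elane, Prtn3 and Ctsg together at 669 CPM in the shallowest and 5869 CPM in the deepest cells, against 7274 CPM in the kept cells outside the gate. A few cells carried much of this: the median cell had 594 CPM in the shallowest, 443 CPM in the middle and 1369 CPM in the deepest group, against 1221 CPM outside the gate. Cd34, a surface protein of progenitors, was at 23.7 and 198 CPM, and Pf4, a platelet chemokine, at 33.9 and 1932 CPM, with a median cell at 0 and 38.4 CPM. At least 5 cDC1 genes and at least 5 stem cell genes were found together in 84 of the 229 cDC1-type cells, 1 in Yoda1 1 and 31 in Yoda1 2, and 33 in control 1 and 19 in control 2. Outside the gate 41 kept cells held at least 5 cDC1 genes, and 22 of these 41 also held at least 5 stem cell genes. Cd74 and Xcr1, unlike Batf3, are genes of the gates, whose fixed minimum of UMIs is a higher CPM in a shallower cell. The part of this minimum and of doublets in these values was not tested.

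**Figure D3:**
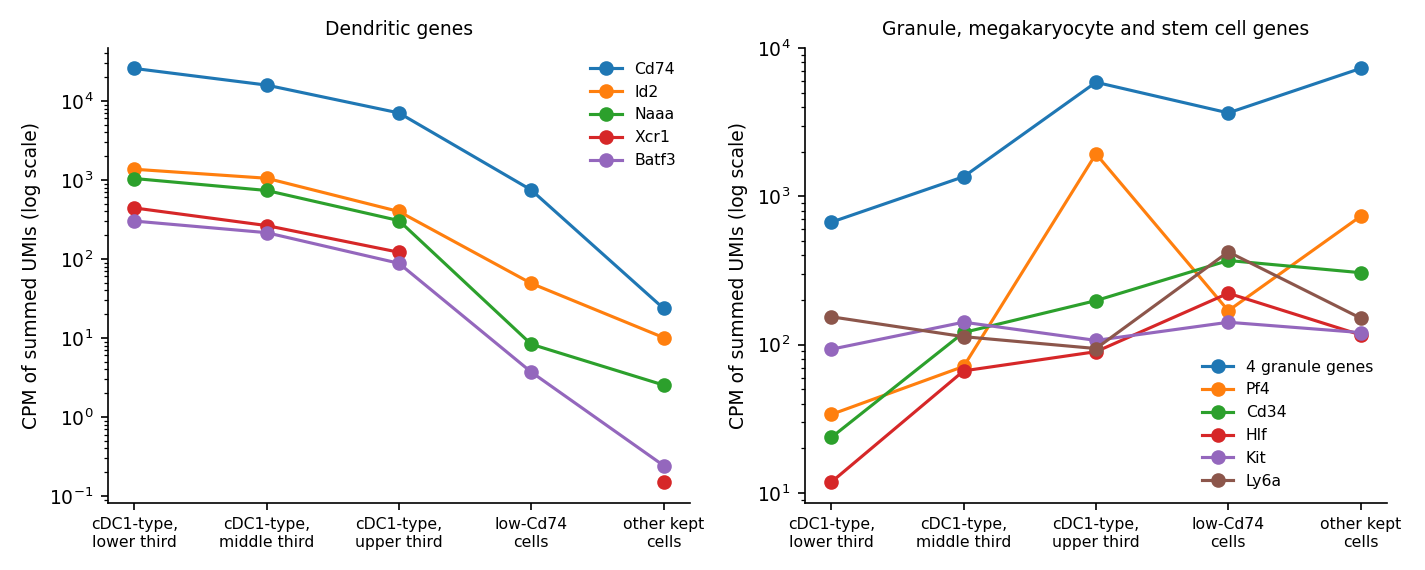
Levels in CPM (vertical axes, log scale) of dendritic genes (left) and of granule, megakaryocyte and stem cell genes (right) in cDC1-type cells from the shallowest to the deepest by UMIs, in members with 5 to 19 Cd74 UMIs and in all other kept cells. Cd74 was at 25773 CPM in the shallowest and 7049 CPM in the deepest cDC1-type cells, the 4 granule genes at 669 and 5869 CPM, and Xcr1 has no point in the low-Cd74 cells because it was at 0.

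The treatment comparison asked whether the share or the transcripts of these cells differed after Yoda1. The gated cells made up 0.614% (95% exact interval 0.464 to 0.796) and 1.30% (1.09 to 1.55) of the kept cells in Yoda1 1 and Yoda1 2, and 1.54% (1.27 to 1.84) and 1.52% (1.26 to 1.82) in control 1 and control 2. Both Yoda1 libraries lay below both controls, and Yoda1 2 lay within the counting error of the controls. The difference of the means was -0.571 percentage points. The exact two-sided permutation test gave p = 0.333, the smallest that its 6 arrangements allow, so with 2 libraries a group no share could pass. Intervals cover counting error only. Without Yoda1 1 the difference was -0.227, and with every cell thinned to 3000 UMIs the groups overlapped, at 0.892% and 1.56% in Yoda1 1 and Yoda1 2 against 1.46% and 1.82% in control 1 and control 2.

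The cDC1-type cells were 13 and 67 in Yoda1 1 and Yoda1 2, or 0.143% and 0.687% of kept cells, against 67 and 82 in control 1 and control 2, or 0.879% and 1.05%. As a share of the members they were 23.2% and 52.8% in Yoda1 1 and Yoda1 2, and 57.3% and 68.9% in control 1 and control 2. The low-Cd74 cells lay the other way, at 0.296% and 0.420% of kept cells in Yoda1 1 and Yoda1 2 and 0.210% and 0.141% in control 1 and control 2. They made up 48.2% and 32.3% of the members in Yoda1 1 and Yoda1 2, and 13.7% and 9.24% in control 1 and control 2. The sums over all members therefore mix these 2 kinds of cells in other proportions in each library.

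**Figure D4:**
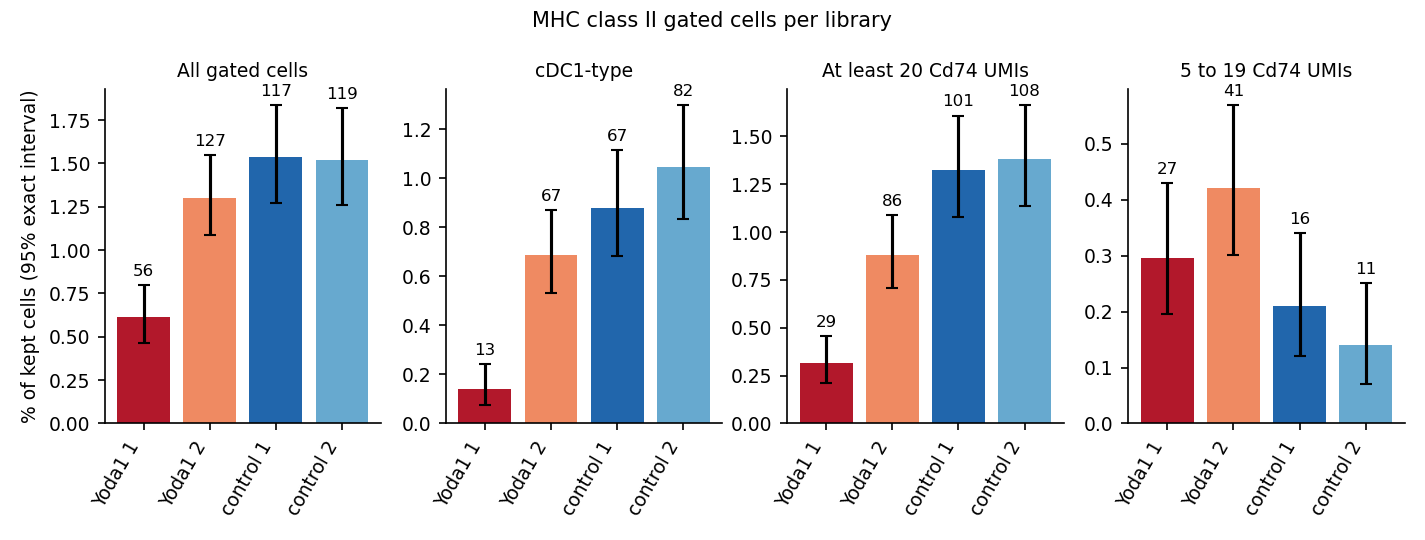
Gated cells as a percent of kept cells per library (bars, with 95% exact intervals and the number of cells above), for all gated cells, the cDC1-type cells and the 2 ranges of Cd74. Yoda1 libraries are on the left of each panel: gated cells made up 0.614% and 1.30% of Yoda1 1 and Yoda1 2 and 1.54% and 1.52% of control 1 and control 2.

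Over the members, 1 of 9924 genes tested passed at an adjusted p under 0.05 (0.0101%; edgeR's quasi-likelihood test on sums per library, Benjamini-Hochberg adjustment). It was Serpine2, an inhibitor of serine proteases (chromosome 1, 79794197 to 79861180), which fell: 1.72 and 2.98 CPM in Yoda1 1 and Yoda1 2, against 42.5 and 38.3 CPM in control 1 and control 2 (log2 fold change -3.91, adjusted p = 0.0224). Those values came from 1 and 5 UMIs in the Yoda1 libraries, and from 105 UMIs in 27 cells and 62 UMIs in 15 cells in the controls. In the other kept cells Serpine2 was at 22.5 and 12.9 CPM in Yoda1 1 and Yoda1 2 and at 28.8 and 40.6 CPM in control 1 and control 2. Without each library in turn its adjusted p was at most 0.0350 in edgeR, but an arm of 1 library takes its spread from the other group, and these fits called 13 to 147 genes. It was not called without the members of very high UMI count (log2 fold change -3.52, adjusted p = 0.485) or at a gate of 10 UMIs (-3.76, adjusted p = 0.0746) or of 20 Cd74 UMIs (-3.69, adjusted p = 0.0679). Serpine2 lay below the 50 CPM of the rule for named genes and was named after its values were seen.

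At an unadjusted p under 0.05, 334 genes were higher (3.37%) and 171 lower (1.72%). None at 50 CPM or more passed the adjusted threshold, so the 5 genes of smallest p in each direction are given by that rule. On the higher side, Hlf (chromosome 11, 90336536 to 90390895) was at 127 and 199.1 CPM in Yoda1 1 and Yoda1 2, against 46.2 and 56.9 CPM in control 1 and control 2, a log2 fold change of 1.69 ± 0.26 (SE, adjusted p = 0.105 in edgeR). The groups did not overlap, as for 17.4% of genes on the higher side. In cDC1-type cells Hlf was at 14.6 and 178 CPM in Yoda1 1 and Yoda1 2 and at 35.2 and 35.4 CPM in control 1 and control 2, so there the Yoda1 libraries lay on either side of the controls. In the kept cells outside the gate it was at 71.7 and 274 CPM in Yoda1 1 and Yoda1 2 and at 59.2 and 78.7 CPM in control 1 and control 2. Next came Gimap6 (log2 fold change 1.49 ± 0.26) and Gimap1 (1.34 ± 0.23), GTPases of lymphocytes that stem cells also express, Wfdc17 (1.18 ± 0.22), a protein with a whey acidic protein domain, and Egfl7 (1.02 ± 0.20), a secreted vascular factor. In all 4 of these, as for Hlf, the low-Cd74 cells of each library had higher levels than the cDC1-type cells of that library. Within members with at least 20 Cd74 UMIs the log2 fold change of Wfdc17 was 0.13, and within those with 5 to 19 it was 0.31. Egfl7 had 0.51 and 0.71 in these ranges, Gimap1 0.89 and 0.92, Gimap6 1.08 and 1.21, and Hlf 1.63 and 0.51.

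On the lower side, Pf4 (chromosome 5, 90772435 to 90773383) was at 137 and 30.4 CPM in Yoda1 1 and Yoda1 2 and at 1294 and 1418 CPM in control 1 and control 2, a log2 fold change of -4.18 ± 0.52 (adjusted p = 0.0534 in edgeR). It was found in 22 of 56 and 29 of 127 members in Yoda1 1 and Yoda1 2 and in 53 of 117 and 45 of 119 in control 1 and control 2, and the top 3 cells held 67.5% and 35.3% of its UMIs in Yoda1 1 and Yoda1 2 and 68.8% and 68.5% in control 1 and control 2. Outside the gate it was at 761 and 407 CPM in Yoda1 1 and Yoda1 2 and at 751 and 1010 CPM in control 1 and control 2. The others were Ap3s1 (-1.08 ± 0.22), a subunit of a vesicle adaptor, Rap1b (-0.83 ± 0.19), a small GTPase of platelets and leukocytes, Ckap2l (-1.05 ± 0.25), a protein of the mitotic spindle, and Tent5a (-0.89 ± 0.22), a poly(A) polymerase. Without the members of very high UMI count Pf4 had -1.69, Rap1b -0.16, Ckap2l -0.89, Ap3s1 -1.02 and Tent5a -1.05. In members with 5 to 19 Cd74 UMIs Pf4 had -2.23, Rap1b -0.20, Ckap2l -0.19, Ap3s1 -1.05 and Tent5a -0.77. None of these 10 genes passed the adjusted threshold.

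**Figure D5:**
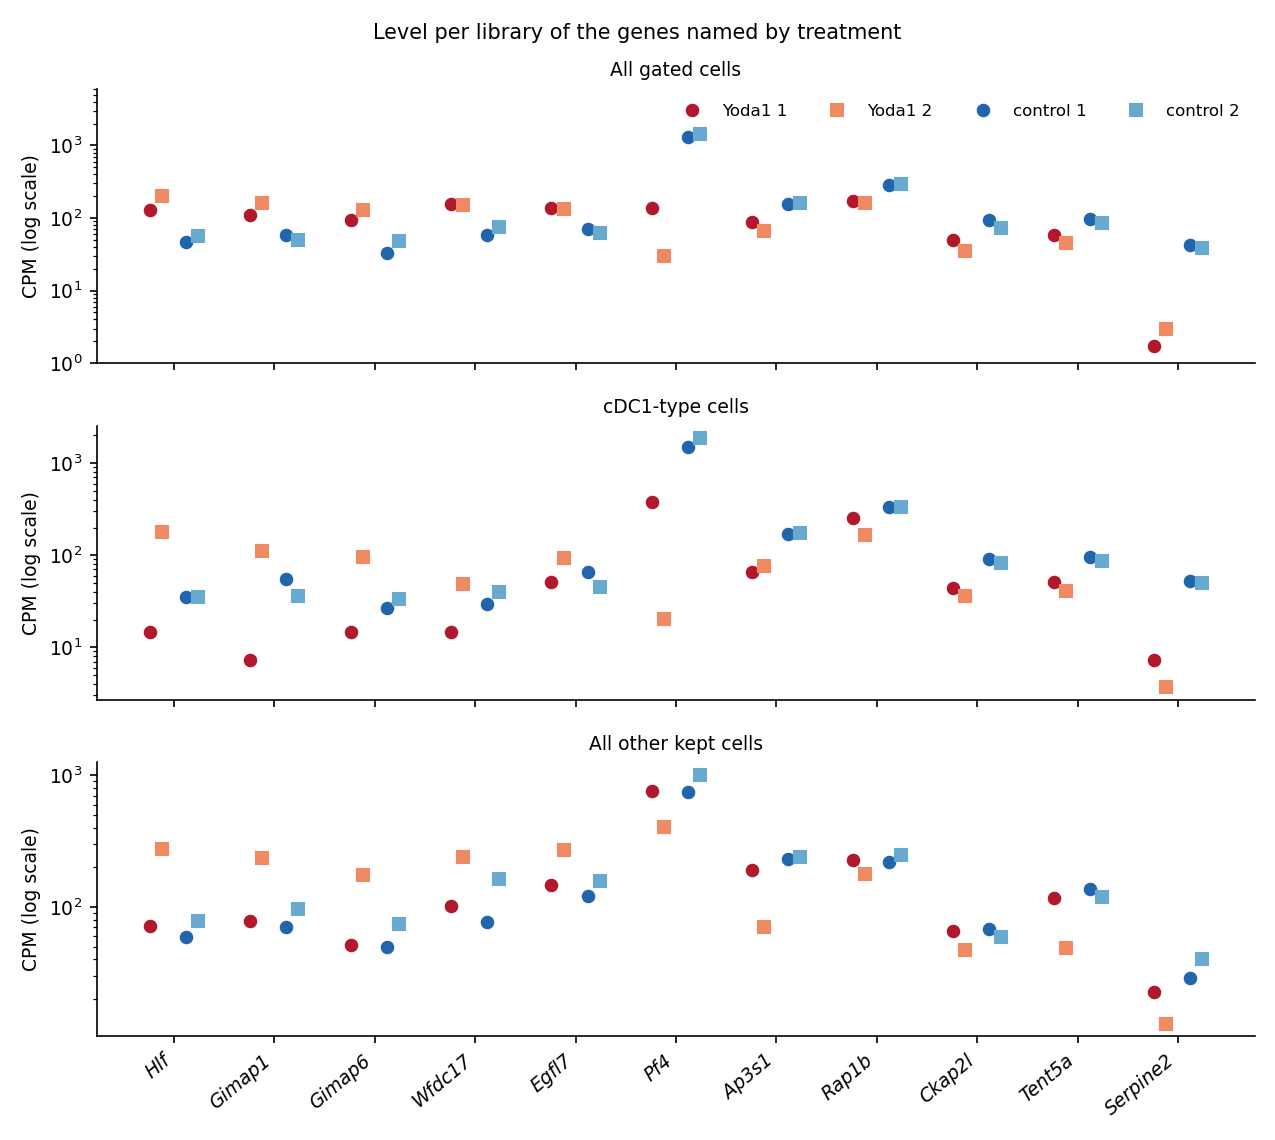
Level per library (CPM, log scale) of the 10 genes named by rule and of Serpine2, in all gated cells, in cDC1-type cells and in all other kept cells. In all gated cells both Yoda1 libraries lay on one side of both controls for each gene, but the genes were chosen by these values. Of all genes tested there, 17.4% did not overlap on the higher side and 13.7% on the lower side. In cDC1-type cells Hlf was at 14.6 CPM in Yoda1 1 and 178 CPM in Yoda1 2, against 35.2 and 35.4 CPM in control 1 and control 2.

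The gene lists are given by their counts and medians beside all tested genes, whose median log2 fold change was 0.00 in the members and -0.01 in the cDC1-type cells. In no list did a member gene pass the adjusted threshold in the sums over the members. The class II pathway without the genes of the gate, 14 tested genes, had 4 higher and 10 lower, with a median of -0.13 and none at an unadjusted p under 0.05. In cDC1-type cells alone the direction turned, with 9 of 12 higher and a median of 0.24, again with none at an unadjusted p under 0.05. The cDC1 list had a median of -0.13, with 9 of 11 tested genes lower. The cDC2 list had 4 of 6 tested genes higher, 3 of them at an unadjusted p under 0.05, and a median of 0.68, and the plasmacytoid list 14 of 20 higher, 4 of them at an unadjusted p under 0.05, and a median of 0.38. Of 10 tested stem cell genes all 10 had values above 0, 8 of them at an unadjusted p under 0.05, and the median was 0.92. Their summed level was 1285 and 1117 CPM in the Yoda1 1 and Yoda1 2 members and 597 and 659 CPM in those of control 1 and control 2, and outside the gate 909 and 1490 CPM in Yoda1 1 and Yoda1 2 and 713 and 861 CPM in control 1 and control 2. Without Ly6a, one of the list, the members had 686 and 988 CPM in Yoda1 1 and Yoda1 2 and 456 and 524 CPM in control 1 and control 2. The part of the low-Cd74 cells, more of the members in both Yoda1 libraries, was not tested. The megakaryocyte and erythroid list had 7 of 8 lower, all 7 at an unadjusted p under 0.05, with a median of -2.45. The other was Hbb-bs, a globin, higher at an unadjusted p under 0.05, where 1122 of 1133 UMIs in Yoda1 2 came from 1 cell. Among the 7, Pf4 and Itga2b did not overlap between the groups, while Car1 did. Car1 was at 87.6 and 13.1 CPM in Yoda1 1 and Yoda1 2 and 443 and 50.7 CPM in control 1 and control 2. Immediate early genes, switched on within minutes of a stimulus, had 13 of 14 lower, 2 of them at an unadjusted p under 0.05, and a median of -0.46. Proliferation genes had 13 of 16 lower and a median of -0.20, with Mki67 at 311 and 244 CPM in Yoda1 1 and Yoda1 2 and 377 and 264 CPM in control 1 and control 2.

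Interferon response genes followed 1 library. Of 20 tested, 19 had values above 0 and the median was 0.93, but their summed level was 3394 CPM in Yoda1 1 and 1033 CPM in Yoda1 2, against 1180 and 1142 CPM in control 1 and control 2. Outside the gate the same sums were 2661 and 860 CPM in Yoda1 1 and Yoda1 2 and 1065 and 901 CPM in control 1 and control 2, so Yoda1 1 stood apart in both. Isg15, an interferon-induced ubiquitin-like protein, was at 394 and 51.9 CPM in the Yoda1 1 and Yoda1 2 members and at 84.2 and 55.0 CPM in those of control 1 and control 2. Ly6a followed the same library, at 600 and 129 CPM in Yoda1 1 and Yoda1 2 and 140 and 135 CPM in control 1 and control 2.

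Sums over the cDC1-type cells alone were added once the data had been seen, and there 2 of 8792 genes passed (0.0227%), both lower. These were Serpine2 (log2 fold change -3.59, adjusted p = 0.0280 in edgeR) and Ctsg, a protease of neutrophil granules (chromosome 14, 56099881 to 56102574). Ctsg was at 161 and 211 CPM in Yoda1 1 and Yoda1 2, against 742 and 789 CPM in control 1 and control 2 (log2 fold change -1.98, adjusted p = 0.0260 in edgeR). Mpo, Prtn3 and Ms4a3, of the same list of granulocyte and monocyte progenitor genes, had values of the same sign without passing. Mpo, myeloperoxidase, was at 395 and 625 CPM in Yoda1 1 and Yoda1 2 and 2204 and 1271 CPM in control 1 and control 2 (-1.70). Prtn3, proteinase 3, had -1.62, and Ms4a3, a marker of granulocyte-monocyte progenitors, -1.81. Of the 9 tested genes of that list, 5 were lower at an unadjusted p under 0.05, against 1.97% of all genes tested there. The list also had 2 genes higher at an unadjusted p under 0.05, against 1.93% of all genes. Outside the gate Ctsg was at 1363 and 342 CPM in Yoda1 1 and Yoda1 2 and 1372 and 1698 CPM in control 1 and control 2, so there only Yoda1 2 lay apart from the controls. The cDC1-type cells of Yoda1 1 held none of the cells with over 3 times the library median of UMIs, those of Yoda1 2 held 16, and those of control 1 and control 2 held 20 and 11. Without such cells the fit called 0 of 7181 genes, with 182 at an unadjusted p under 0.05, and Ctsg had -1.71 (adjusted p = 0.434). Without control 1 or without control 2 it also called 0, with 129 and 382 genes at an unadjusted p under 0.05 and Ctsg at adjusted p = 0.9999 and 0.181 in edgeR. Without Yoda1 1 it called 19 and without Yoda1 2 it called 17. Serpine2 was past the threshold in these cells without Yoda1 1, and not without any of the other libraries.

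In the cDC1-type cells the cDC1 genes lay higher in Yoda1 by value, with 11 of 11 tested genes above 0 and a median of 0.50. At an unadjusted p under 0.05, 3 were higher, against 1.93% of all genes tested there, and none passed the adjusted threshold. Tlr3 (0.98), Xcr1 (0.85) and Naaa (0.80) were these 3. In Yoda1 1, these levels came from 13 cells. Xcr1 was at 446 and 255 CPM in Yoda1 1 and Yoda1 2 and at 121 and 245 CPM in control 1 and control 2, so Yoda1 1 was high, control 1 low and the other libraries alike. The genes that gate the cDC1-type cells (Xcr1, Clec9a, Cadm1) are among the 11, and Xcr1 is among the 3. Their gate is a fixed minimum of UMIs, which is a higher CPM in a shallower cell. Median UMIs of these cells were 8873 and 13946 in Yoda1 1 and Yoda1 2 and 19855 and 11384 in control 1 and control 2. The part of depth was not tested. Interferon genes, by contrast with the sums over all members, had a median of -0.22 in these cells, with 6 of 18 above 0. The summed interferon level of the cDC1-type cells was 1732 and 697 CPM in Yoda1 1 and Yoda1 2 and 1084 and 970 CPM in control 1 and control 2. Piezo1, the target of Yoda1, was at 8.59 and 28.6 CPM in the Yoda1 1 and Yoda1 2 members and at 30.8 and 27.2 CPM in those of control 1 and control 2 (log2 fold change -0.43 ± 0.39), with no difference that passed the test.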

How the data were processed

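The authors deposited, for each of 4 libraries, a matrix of UMI counts (genes by barcodes, not normalized). The file headers name Cell Ranger 7.1.0. The submitters' processing notes name Seurat 4.3.0, GRCm38 and mm10. The capture platform is uncertain, since per the labels' protocols both 10x Genomics and a Singleron microwell system appear. Kept cells per library were 9122 and 9756 (Yoda1 1 and 2) and 7620 and 7822 (control 1 and 2), with 89058521 to 110493533 UMIs, and doublets were not removed. The gate and gene lists were chosen with earlier results of these data known.

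Counts were summed per library over members and tested with edgeR 4.0.16 (quasi-likelihood, filterByExpr, TMM, Benjamini-Hochberg, threshold 0.05) in R 4.3.3, a test checked on simulated data. DESeq2 1.42.0 was an alternative. SE is the absolute log2 fold change divided by the square root of F. Named genes by treatment were those past the adjusted threshold with a mean of 50 CPM or more and no overlap between groups, or, where none passed, the 5 of smallest p in each direction. Against other cells, they were the 12 of highest ratio at 100 CPM or more in the members. Predicted, mitochondrial and ribosomal symbols and gate genes were left out. Shares have exact (Clopper-Pearson) intervals and an exact permutation test over 6 arrangements, computed in Python 3.11.15 with scipy 1.17.1. For thinned shares each cell was cut to 3000 UMIs, leaving out 11 members and 1067 other cells that were shallower, and the thinned gate needed 2 UMIs. Gene positions are from GENCODE M21 (GRCm38), and all 282 symbols matched.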

Additional observations from a re-analysis of the deposited data

Results flagged for a closer look

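The share of kept cells differed in opposite directions in the 2 ranges of Cd74. Members with at least 20 Cd74 UMIs differed by -0.753 percentage points (Yoda1 minus control), with 0.318% and 0.882% of kept cells in Yoda1 1 and Yoda1 2 and 1.33% and 1.38% in control 1 and control 2. Members with 5 to 19 differed by 0.183 percentage points, with 0.296% and 0.420% in Yoda1 1 and Yoda1 2 and 0.210% and 0.141% in control 1 and control 2. Both are listed here because all libraries of a group lay on the same side of the other group in each range, and on opposite sides between the ranges. The difference between the ranges was not tested, and the division at 20 UMIs was chosen after the data were seen.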

How the results depend on the processing

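The share of members stayed lower in Yoda1 under every planned setting, by -0.417 percentage points (thinned) to -0.718 (gate of 10 UMIs), and by -0.914 to -0.227 with 1 library left out, but was 0.183 higher for members with 5 to 19 Cd74 UMIs. The difference in Siglech share was 1.08 to 4.24 points without control 1, control 2 or Yoda1 1, and reversed to -1.27 without Yoda1 2. The count of genes called over the members, 1, was 4 with DESeq2, 4 with the stricter cell filter (at least 1000 genes, at most 5% mitochondrial), 2 without high-UMI members and 2 in cDC1-type cells. It was 122 with no filter on low counts, and 0 at the gate of 10 UMIs, with at least 20 Cd74 UMIs and with 5 to 19 (302, 288 and 167 at an unadjusted p under 0.05), and 13 to 147 without 1 library. Beside Serpine2, DESeq2 called Cavin2, Itga2b and Hlf, and the stricter filter Cavin2, Pf4 and Ehd3. Without high-UMI members S100a8 and S100a9 were called. In cDC1-type cells the count of 2 was 0 without high-UMI cells and 0 to 19 without 1 library. With the replicate number as a block the fit over all members called 122 (71 higher, 51 lower). Whether the replicate numbers pair the libraries was not settled: only 2 pairs exist, and same-numbered deviations correlated at 0.187 across 9924 genes. B-lineage cells were 0.110% and 0.262% of kept cells in Yoda1 1 and control 1, and 1.10% and 1.78% in Yoda1 2 and control 2. The share of members did not follow the number in this way. Block differences in shares equal the unblocked ones. Over all settings, the genes named by rule, Serpine2, and Ctsg in cDC1-type cells gave 115 results on the same side of the threshold, 38 newly past it, 10 no longer past it and none of opposite sign. Over all members Ctsg, not called, was -0.55, and 0.18 without Yoda1 2. The alternatives of the Siglech comparison were not run, since that test could not be. The causes of these shifts were not tested. Depth limits Yoda1 1 most, where 3 UMIs equal 5.16 CPM.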

Other observations

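Of the mechanosensitive channels, 2 of 5 tested genes were above 0 over the members, with none at an unadjusted p under 0.05 and a median log2 fold change of -0.17. Endosomal sensors of nucleic acids, which dendritic cells use to detect viruses, had 5 of 10 above 0 and a median of -0.03. Mast cell, basophil and eosinophil genes had a median of -1.47 and 5 of 6 below 0. Of these, 3 were lower at an unadjusted p under 0.05, against 1.72% of all genes tested. Their summed level was 82.5 and 82.9 CPM in Yoda1 1 and Yoda1 2 and 107 and 716 CPM in control 1 and control 2, so control 2 alone was high.

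Ehd3, an endosomal protein, had no UMI in the members of either Yoda1 library and was at 19.8 and 22.3 CPM in control 1 and control 2. A count of 0 allows up to 5.16 CPM in Yoda1 1 and 1.79 CPM in Yoda1 2. In the kept cells outside the gate it was at 11.1 and 5.25 CPM in Yoda1 1 and Yoda1 2 and at 10.7 and 12.5 CPM in control 1 and control 2. It was named after its values were seen.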
